A study of Homo sapiens with 21 samples.

Results

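This comparison set 2 populations of JMJD6 knockout cells directly against each other: 786-O cells infected with guide RNA sg4 and 786-O cells infected with guide RNA sg2. The 786-O line comes from a human clear cell renal carcinoma and is widely used to study that tumour. All RNA libraries whose titles name either JMJD6 guide were taken, which gave 3 sg4 libraries and 3 sg2 libraries, 6 of the 9 RNA libraries and 6 of the 21 samples of the series. The 3 libraries of the third group, cells with wild-type JMJD6 infected with a control guide, did not enter the comparison and are given beside it only to place a level. All 9 libraries came from the same line under the same culture conditions, and the labels give the knockout groups as populations infected with a guide, with no word on single clones or on the remaining JMJD6 protein. The treatment text in the labels describes siRNA transfection, but titles and extraction text describe guides, and the groups follow the titles. RNA was taken in triplicate, and no label says whether the triplicates are separate cultures, so the p-values measure the spread between these libraries, which may be technical.

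JMJD6 is a member of the JmjC family of oxygenases, enzymes that use oxygen and 2-oxoglutarate. It has been described as a lysyl hydroxylase of splicing proteins and as a partner of the transcription elongation machinery. A guide RNA directs Cas9 to one site in a gene, and the cuts are repaired with small insertions or deletions. Populations made with different guides against the same gene therefore share the target but differ in the cut site, in possible off-target sites and in the history of the infected cells.

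The libraries held from 15445425 to 16172033 estimated counts with sg4 and from 14302316 to 16300347 with sg2. PAX8, the renal lineage transcription factor, stood at 303 to 342 CPM (counts scaled to a common library size by edgeR, with TMM factors of all 9 libraries) with sg4 and at 246 to 319 CPM with sg2, as fits the labelled line. Some libraries stood apart in 2 features. The difference between the annotated and the effective length of transcripts, which follows the fragment lengths that Salmon assumed, was 293, 297 and 296 bases in the sg4 libraries and 269, 291 and 270 bases in the sg2 libraries, against 295 to 298 bases in the controls. Libraries 1 and 3 of sg2 thus lay apart from the other 7. In addition, library 1 of sg4 was nearer to libraries 1 and 2 of sg2 than to its own group. Its root mean square log2 CPM difference over the tested genes was 0.291 to library 1 of sg2, 0.309 to library 2 and 0.321 to library 3 of sg2, against 0.312 and 0.315 to the other sg4 libraries. Over all pairs, libraries of the same guide differed by 0.290 to 0.334 and libraries of different guides by 0.291 to 0.346. The ranges within and between guides overlapped almost wholly.

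The targeted gene was lower with sg4 than with sg2, by less than the distance of either from the controls, and was not called. JMJD6 had 11.7, 14.4 and 10.7 CPM in the sg4 libraries and 17.1, 16.1 and 17.3 CPM in the sg2 libraries, against 41.5, 40.9 and 44.4 CPM in the controls. Every sg4 library lay below every sg2 library, and every knockout library below every control. The mean was 12.3 ± 1.91 CPM for sg4, and that for sg2 was 16.8 ± 0.651 CPM (SD over 3 libraries each). The log2 difference, sg4 minus sg2, was −0.45 ± 0.13 (SE), and it did not pass the threshold (quasi-likelihood test of edgeR, adjusted p = 0.285 by Benjamini-Hochberg, unadjusted p = 0.00159). Without 1 library the difference ranged from −0.58 to −0.37, and JMJD6 was not called in any of those fits. Of the 2 JMJD6 transcripts in the files, the one of 5423 bases had 104, 119 and 91 estimated counts with sg4 and 142, 135 and 142 with sg2, against 317 to 325 in the controls. The one of 1822 bases had 82, 99 and 72 counts with sg4 and 133, 90 and 111 with sg2, against 291 to 310 in the controls. The longer transcript separated the guides without overlap, while the shorter one overlapped between them. These are RNA levels and say nothing of how much protein was left.

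No gene beside JMJD6 on chromosome 17 was called between the guides. MXRA7 had a log2 difference of 0.01 ± 0.06, METTL23 of 0.05 ± 0.09 and SRSF2, a splicing factor of the SR family, of 0.10 ± 0.06 (SE), and none was called. LOC105274304, at about 1 CPM, differed by −0.57 ± 0.47 and was not called, and MIR636 had no count in any library. Of the 20 nearest tested genes, none reached an unadjusted p under 0.05, and their median log2 difference was 0.03. DGAT1, which catalyses the last step of triglyceride synthesis and is named with JMJD6 in the series title, had 26.0, 31.6 and 31.5 CPM in the sg4 libraries and 26.5, 25.3 and 27.2 CPM in the sg2 libraries, against 37.9 to 40.7 CPM in the controls. Library 1 of sg4 lay within the sg2 range while libraries 2 and 3 lay above it. DGAT1 thus differed by 0.17 ± 0.10 on the log2 scale (SE, edgeR adjusted p = 0.612). It was 0.26 without library 1 of sg4 and −0.02 when library 1 was the only sg4 library, and it was not called in either fit.

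Across the transcriptome, 10 of 13314 tested genes were called between the guides at an edgeR adjusted p under 0.05, which is 0.0751% of those tested. With sg4 8 were higher (0.0601%) and 2 were lower (0.015%). The 8 higher genes were IFI6, FXYD2, DPP7, C3, CEBPD, SOD2, SERPINA1 and SDC1, and the 2 lower genes were DLC1 and MTUS1. At an unadjusted p under 0.05, 678 genes were higher (5.09%) and 565 lower (4.24%). In 946 genes (7.11%) all 3 sg4 libraries lay above all 3 sg2 libraries, and in 934 genes (7.02%) all lay below. The called differences were small, from 1.22-fold to 1.52-fold, beside a median absolute log2 difference of 0.09 over all tested genes. In all 10 called genes the 3 libraries of one guide lay wholly on one side of those of the other.

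**Figure D1:**
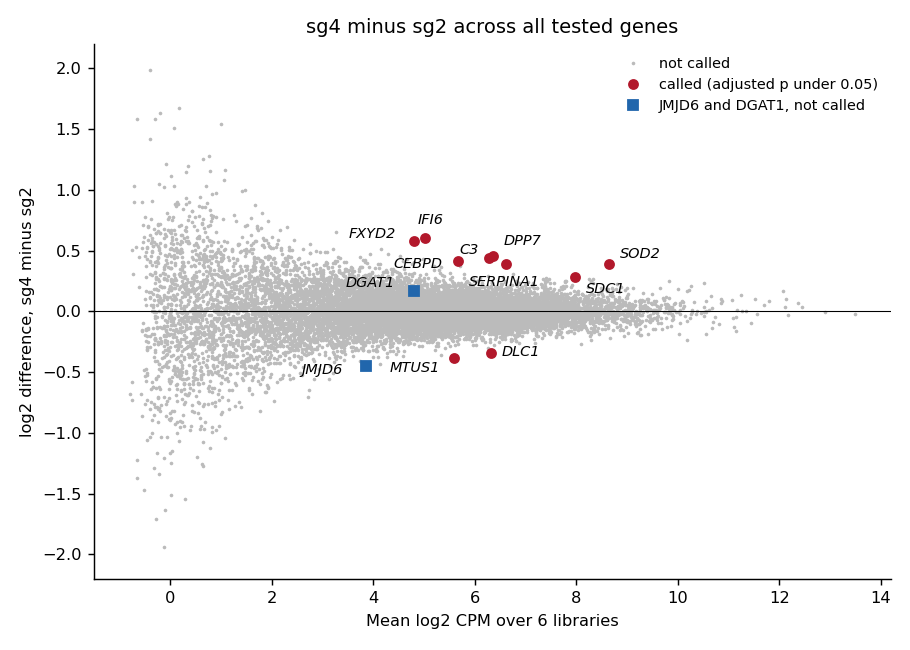
Log2 difference between sg4 and sg2 (y axis) against mean log2 CPM over the 6 libraries (x axis) for 13314 tested genes. Red points are the 10 called genes, 8 above and 2 below 0, and blue squares are JMJD6 and DGAT1, which were not called.

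The calls depended on which libraries were present. Without library 2 of sg4, library 3 of sg4 or library 1 of sg2, no gene was called by edgeR, although 857, 902 and 908 genes had an unadjusted p under 0.05 in those fits. Without library 1 of sg4, the one near the sg2 libraries, 83 genes were called and all 10 genes were among them. Without library 2 of sg2 26 genes were called, 7 of the 10 among them, and without library 3 of sg2 6 genes were called, 5 of the 10 among them. With libraries 1 and 3 of sg2 both left out, which left library 2 as the lone sg2 library, no gene was called and 903 had an unadjusted p under 0.05. That fit takes the lone library to vary like the sg4 group. In each of these fits the 10 genes kept their sign, and the values below are given with their ranges when 1 library is left out.

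**Figure D2:**
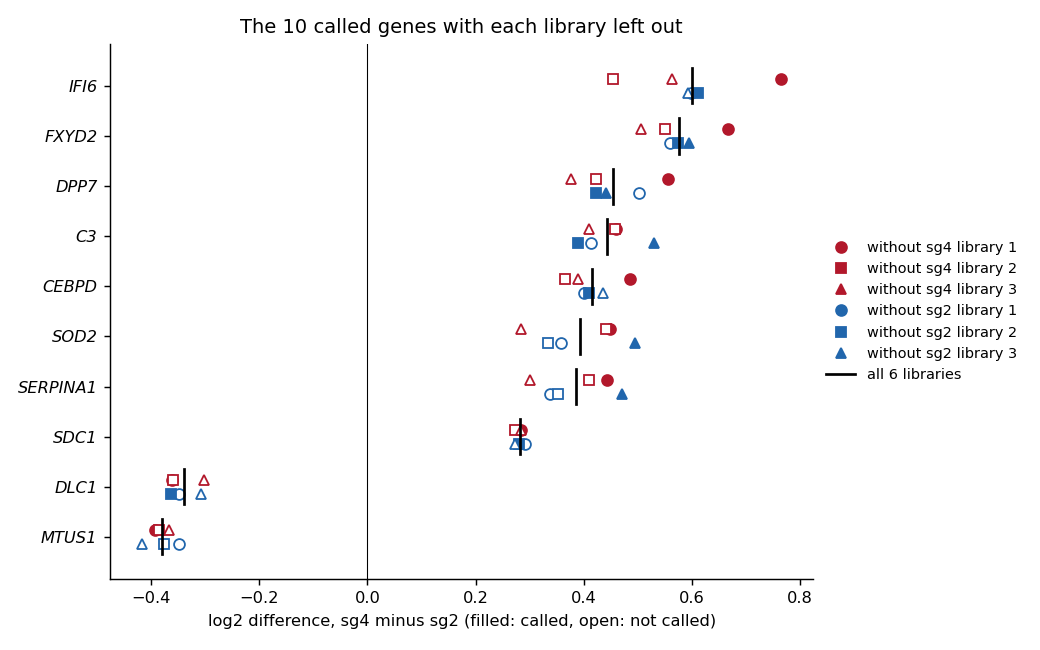
Log2 difference, sg4 minus sg2 (x axis), of the 10 called genes (rows) in 6 fits that each leave out 1 library. The black bar is the fit of all 6 libraries, filled symbols are called and open symbols are not. No symbol crosses 0, and the symbols for the fits without library 2 or 3 of sg4 or library 1 of sg2 are all open.

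Among genes of the acute-phase response and of complement, C3, SERPINA1 and SOD2 were higher with sg4. This programme comprises secreted defence proteins that cells make under inflammatory cytokines, chiefly through the transcription factors NF-kB, STAT3 and C/EBP. C3, the central component of the complement cascade, had 87.3, 87.5 and 93.2 CPM in the sg4 libraries and 63.0, 60.6 and 73.4 CPM in the sg2 libraries, against 65.5 to 69.8 CPM in the controls. Its sg4 libraries lay above both other groups. The log2 difference was 0.44 ± 0.07 (SE, edgeR adjusted p = 0.0136), and without 1 library it ranged from 0.39 to 0.53 with adjusted p-values from 8.2e-04 to 0.348. SERPINA1, which encodes the protease inhibitor alpha-1-antitrypsin, had 102, 107 and 123 CPM with sg4 and 79.0, 80.5 and 94.4 CPM with sg2, against 106 to 112 CPM in the controls. Here the sg4 libraries spanned the range of the controls, and the sg2 libraries lay below it. SERPINA1 differed by 0.39 ± 0.08 on the log2 scale (adjusted p = 0.0363, and 0.30 to 0.47 without 1 library). SOD2, the mitochondrial superoxide dismutase and a known target of NF-kB, had 418, 424 and 519 CPM with sg4 and 328, 316 and 393 CPM with sg2, against 383 to 392 CPM in the controls. Library 3 was the highest of its group for SOD2 and SERPINA1 with both guides. The log2 difference of SOD2 was 0.39 ± 0.08 (adjusted p = 0.0316, and 0.28 to 0.49 without 1 library).

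Of the 16 tested genes of the acute-phase and complement list, these 3 were called higher, none was called lower, and 15 had a positive log2 difference. The median of the list was 0.39, beside −4e-04 over all tested genes, and it was 0.38 after removal of the length trend described below. Members of this list were chosen with earlier results of these data known, so its median is a description and not a test. In the fit that kept only library 1 of sg4 the median was 0.11, and in the fit that kept only library 2 of sg2 it was 0.43. Serum amyloid A genes and SERPINA3, an antichymotrypsin, were expressed at a low level and not called. SERPINA3 had 1.07, 1.92 and 1.58 CPM with sg4 and 0.558, 0.713 and 0.137 CPM with sg2, with a log2 difference of 1.68 ± 0.49 (adjusted p = 0.285). SAA1 differed by 0.81 ± 0.27 (adjusted p = 0.361) and SAA2 by 1.03 ± 0.39 (adjusted p = 0.428), both without overlap between the guides. The abundant complement regulators CD46, CD55 and CD59 had log2 differences from 0.00 to 0.09 and were not called. CFI, a complement protease, was the member with a negative value, at −0.08 ± 0.09.

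CEBPD, a C/EBP transcription factor of the acute-phase response, was also higher with sg4. It had 52.4, 62.2 and 60.1 CPM in the sg4 libraries and 42.8, 43.3 and 44.9 CPM in the sg2 libraries, against 51.6 to 69.7 CPM in the controls. The sg2 libraries were tightly grouped and lay below every other library. CEBPD differed by 0.41 ± 0.08 on the log2 scale (edgeR adjusted p = 0.0316), and it lay between 0.36 and 0.49 without 1 library. In the fit of all 9 libraries CEBPD was not called.

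No member of the NF-kB response list was called in the main fit. Of 26 tested genes, which include inhibitors that feed back on NF-kB, cytokines and chemokines, none was called by edgeR or by DESeq2, which gave an adjusted p to 6 of them. SOD2, a known target of NF-kB, was placed in the acute-phase and complement list and not in this one. The absence of calls here thus depends on how genes were placed in lists. At an unadjusted p under 0.05, 6 were higher and none lower, and the median was 0.11. CXCL8, the neutrophil chemokine interleukin-8, had 71.2, 80.3 and 101 CPM with sg4 and 65.7, 50.6 and 90.0 CPM with sg2, with overlap, and differed by 0.29 ± 0.12 (adjusted p = 0.474). Without 1 library the CXCL8 difference ranged from 0.11 to 0.53, the highest without library 3 of sg2, where it was called (edgeR adjusted p = 0.038). It was also called when no low-count filter was used (adjusted p = 0.036). NFKBIA, which encodes the inhibitor that holds NF-kB in the cytoplasm, differed by 0.21 ± 0.09 (adjusted p = 0.474) and also overlapped. The median of the list was −0.01 when library 1 was the only sg4 library and 0.26 when library 2 was the only sg2 library. In none of the 26 genes did the guides separate without overlap. Over all tested genes, sg4 lay wholly above sg2 in 7.11% and wholly below in 7.02%.

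Because SERPINA1 and C3 are also liver products, markers of other cell types were read beside these results. In bulk RNA, fewer cells of a type and less RNA per cell cannot be told apart. Of 15 hepatocyte markers, APOA2, APOB, TTR, FGA, HP and AHSG had no count in any of the 9 libraries. Without SERPINA1 the summed level of the hepatocyte list was 4.02 to 5.42 CPM with sg4 and 2.78 to 3.60 CPM with sg2, against 3.19 to 5.05 CPM in the controls. Airway epithelium markers, with SCGB3A2 at 0 throughout, summed to 13.3 to 24.3 CPM with sg4 and 9.42 to 17.6 CPM with sg2, against 7.68 to 13.1 CPM in the controls. Their part in the results was not tested, and none of their 7 tested genes was called by edgeR (2 were higher at an unadjusted p under 0.05). The median log2 difference of those 7 was 0.45, with 5 positive and 2 negative, all at a few CPM or less. They ran from −1.22 ± 0.85 for SFTPA2 and −0.68 ± 0.86 for SFTPA1 to 1.54 ± 0.44 for BPIFA1 (SE). The 2 tested hepatocyte markers, SERPINA1 and AMBP, had a median of 0.49. Both medians lay above the 0.39 of the acute-phase and complement list, which also holds SERPINA1. Leukocyte markers, with CD3D, CD3E, CD2 and MS4A1 at 0, summed to 49.0 to 58.4 CPM with sg4 and 48.2 to 52.6 CPM with sg2, against 55.4 to 69.6 CPM in the controls. Fibroblast and pericyte markers summed to 52.6 to 61.5 CPM with sg4 and 54.4 to 59.7 CPM with sg2, and endothelial markers, with CDH5 and EMCN at 0, to 2.96 to 3.83 CPM with sg4 and 2.87 to 3.71 CPM with sg2.

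Of the interferon-stimulated genes, IFI6 was the one called between the guides. Interferons act through receptors and STAT transcription factors on a promoter element, the interferon-stimulated response element, to induce antiviral genes. IFI6, which encodes a small interferon-induced membrane protein, had 29.6, 46.5 and 40.8 CPM in the sg4 libraries and 25.6, 26.0 and 25.4 CPM in the sg2 libraries, against 28.7 to 36.6 CPM in the controls. The sg2 libraries were nearly identical, whereas library 1 of sg4 was far below libraries 2 and 3. The log2 difference was 0.60 ± 0.11 (SE, edgeR adjusted p = 0.0316), ranged from 0.45 to 0.77 without 1 library, and was 0.20 when library 1 was the only sg4 library. IFI6 was not called in the fit of all 9 libraries.

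The promoters of IFI6 and of OAS3 are shown because IFI6 was called and both carry matches to the interferon element. They are RefSeq windows of assembly GRCh38.p14 from 250 bases before to 50 bases after the start of the gene, written 5′ to 3′ on the strand of the gene. IFI6 lies at chr1:27672143-27672442 on the minus strand and OAS3 at chr12:112938224-112938523 on the plus strand. Capitals mark matches to a pair of GAAA half-sites separated by 2 bases of any kind, searched on both strands.
IFI6: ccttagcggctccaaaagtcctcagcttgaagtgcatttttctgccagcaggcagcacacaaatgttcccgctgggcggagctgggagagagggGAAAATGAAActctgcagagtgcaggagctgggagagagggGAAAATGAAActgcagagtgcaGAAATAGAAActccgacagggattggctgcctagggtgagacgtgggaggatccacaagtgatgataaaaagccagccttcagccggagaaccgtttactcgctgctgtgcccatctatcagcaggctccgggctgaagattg
OAS3: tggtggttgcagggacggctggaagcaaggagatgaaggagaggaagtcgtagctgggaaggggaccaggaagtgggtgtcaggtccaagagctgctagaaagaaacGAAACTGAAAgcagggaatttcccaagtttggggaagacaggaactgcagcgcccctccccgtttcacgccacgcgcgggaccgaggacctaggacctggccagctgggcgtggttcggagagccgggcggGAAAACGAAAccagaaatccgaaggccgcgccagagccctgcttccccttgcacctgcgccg
IFI6 has 3 matches, which begin at positions −156, −115 and −93 from the start, and OAS3 has 2. A match is a description of the letters and not evidence of binding. This motif was found in 3.57% of all 35116 promoters of the table and in 2.73% of the promoters of tested genes. Of the 33 interferon-list genes that had a promoter entry, 22 had a match (66.7%). The list share is of genes and the others are of promoters, of which a gene can have several, so they are not the same measure. The 22 genes with a match had a median log2 difference of 0.02, and the 11 without one had 0.08.

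Of 44 tested interferon-stimulated genes, 1 was called higher and none lower, 27 were positive, and the median log2 difference was 0.06. OAS3, a sensor of double-stranded RNA, had 83.0, 94.6 and 84.6 CPM with sg4 and 78.3, 69.8 and 73.6 CPM with sg2, and differed by 0.24 ± 0.07 (edgeR adjusted p = 0.285). BST2, the membrane tether tetherin, differed by 0.19 ± 0.06 (adjusted p = 0.343), and MX2, at about 2 CPM, by 1.28 ± 0.39 (adjusted p = 0.313). These 3 genes separated the guides without overlap but did not pass the threshold. In the whole list, sg4 lay wholly above sg2 in 10 of the 44 genes and wholly below in 1. The shares over all tested genes were 7.11% and 7.02%. IFIT3, at more than 100 CPM with both guides, differed by −0.05 ± 0.06. IRF1, a transcription factor of the interferon response, differed by −0.16 ± 0.08, and neither was called. The median of the list was −0.02 when library 1 was the only sg4 library.

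No gene of class I antigen presentation was called by edgeR. Of 17 tested genes, 5 were higher and none lower at an unadjusted p under 0.05, and the median was 0.06. HLA-C had 311, 349 and 360 CPM with sg4 and 286, 280 and 297 CPM with sg2, without overlap, and a log2 difference of 0.24 ± 0.06 (edgeR adjusted p = 0.256). It was called by DESeq2, which gave an adjusted p to 9 of the 17, and by edgeR without library 1 of sg4, at 0.30. The class I genes resemble one another closely, so reads can be split between them and their values are uncertain.

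**Figure D3:**
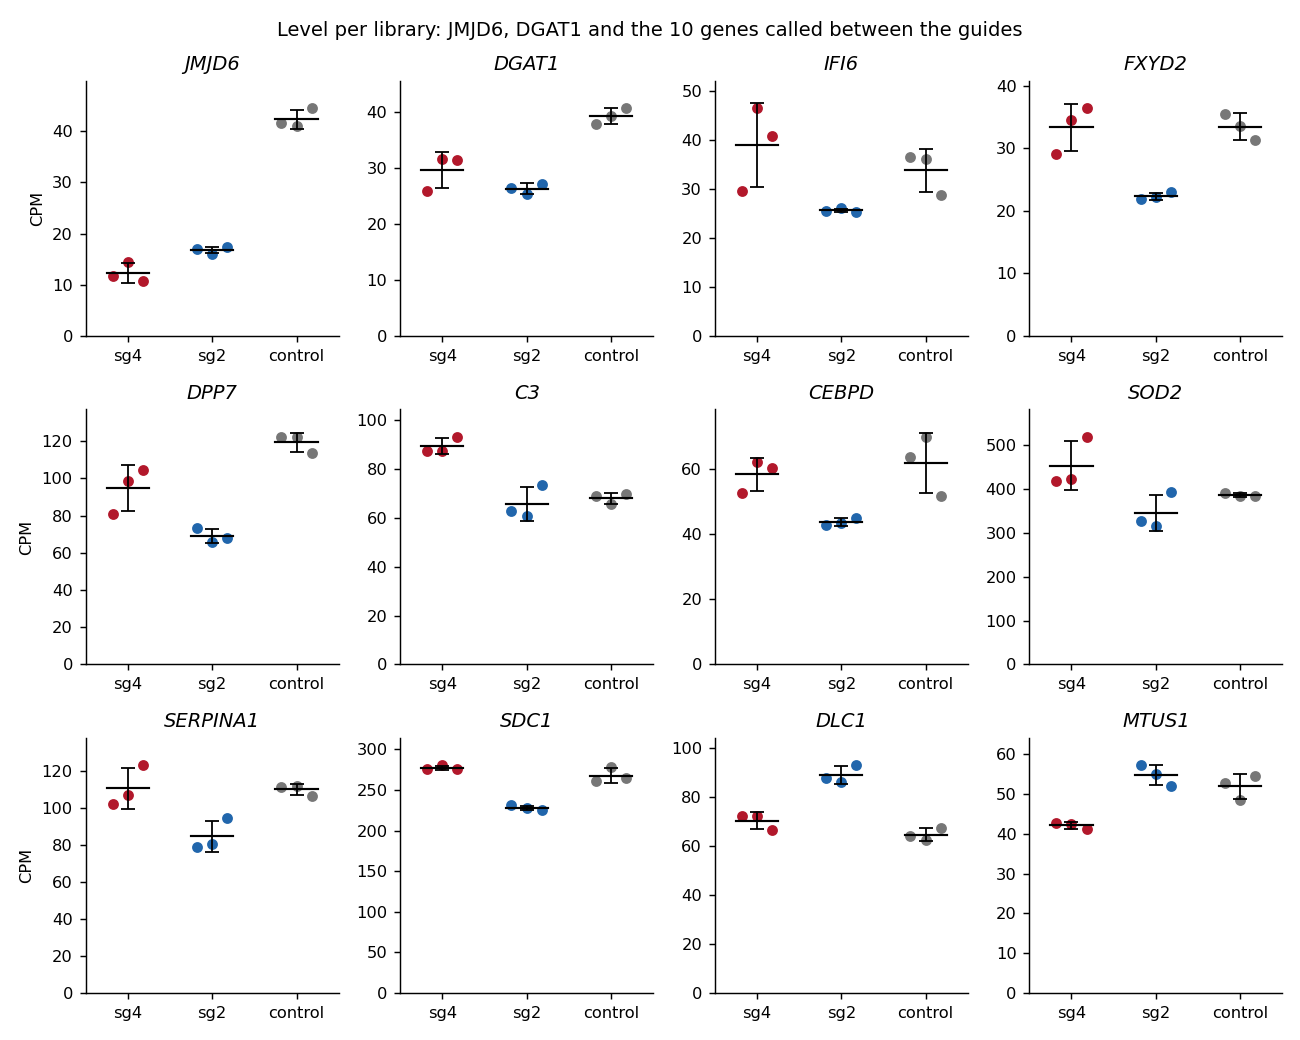
Level in CPM (y axis, from 0) of JMJD6, DGAT1 and the 10 called genes in each of the 3 sg4, 3 sg2 and 3 control libraries. Points are libraries, the bar is the mean and the whiskers the SD. In every panel but that of DGAT1 the sg4 and sg2 points do not overlap, and in FXYD2, SERPINA1 and SDC1 the sg4 points lie near the controls.

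Among the remaining called genes that were higher with sg4, FXYD2 is a marker of the renal tubule, where its product modulates the sodium pump. It had 29.0, 34.6 and 36.4 CPM in the sg4 libraries and 21.8, 22.3 and 22.9 CPM in the sg2 libraries, against 31.3 to 35.6 CPM in the controls. FXYD2 differed by 0.58 ± 0.10 on the log2 scale (SE, edgeR adjusted p = 0.0136), which ranged from 0.51 to 0.67 without 1 library. The annotation holds a readthrough gene, FXYD6-FXYD2, that can share reads with it, at 4.78 to 9.41 CPM with sg4 and 4.21 to 6.49 CPM with sg2 (log2 difference 0.24 ± 0.22, not called), so the split between them is uncertain. Of 34 tested genes of renal tubule and ion transport, FXYD2 was the only one called, and the median was 0.05. GGT1, a brush-border gamma-glutamyl transferase, differed by 0.19 and CDH6, a renal cadherin, by 0.15, and neither was called.

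DPP7, a lysosomal dipeptidyl peptidase, had 80.8, 98.7 and 105 CPM with sg4 and 73.4, 65.9 and 67.8 CPM with sg2, against 113 to 122 CPM in the controls. Both knockout groups thus lay below the controls, with sg4 nearer to them. The log2 difference was 0.45 ± 0.08 (edgeR adjusted p = 0.0136), with a range of 0.38 to 0.56 without 1 library and a value of 0.23 when library 1 was the only sg4 library. Of 46 tested lysosomal genes DPP7 was the only one called, 32 were positive and the median was 0.06. CTSD, the abundant protease cathepsin D, differed by 0.17, and the enzymes MAN2B1, IDUA and ARSA by 0.17 to 0.26, without a call. Of the 20 tested genes nearest to DPP7 on chromosome 9, 16 were higher with sg4, with a median log2 difference of 0.11. An unadjusted p under 0.05 was reached by 5 of the 20, beside 9.34% of all tested genes, and none was called. Around the other called genes that number ran from 0 for FXYD2 and SDC1 to 6 for SERPINA1. The cause was not tested.

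SDC1, the heparan sulphate proteoglycan syndecan-1, had 276, 281 and 276 CPM with sg4 and 231, 228 and 225 CPM with sg2, against 261 to 278 CPM in the controls. Replicates lay very close together, and the log2 difference of 0.28 ± 0.06 (edgeR adjusted p = 0.0381) was the least of the called ones. It stayed between 0.27 and 0.29 without 1 library, and DESeq2 called it as well. Of 19 tested genes of cell-surface proteoglycans and their shedding, SDC1 was the only one called by edgeR, and the median was −0.02. After removal of the length trend described below that median was 0.02. NDST1, which sulphates heparan chains, differed by −0.18 and was called lower by DESeq2 only. ADAM17, the sheddase, and GPC6, a glypican, each differed by −0.18 and were not called.

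DLC1 and MTUS1 were the 2 genes called lower with sg4. DLC1, a GTPase-activating protein, had 72.4, 72.3 and 66.5 CPM in the sg4 libraries and 88.0, 86.1 and 93.1 CPM in the sg2 libraries, against 62.3 to 67.5 CPM in the controls. The sg4 libraries lay near the controls and the sg2 libraries above both. The log2 difference was −0.34 ± 0.07 (SE, edgeR adjusted p = 0.0381), from −0.36 to −0.30 without 1 library, and after removal of the length trend it was −0.30 with an adjusted p of 0.0605. MTUS1, which encodes a microtubule-associated protein, had 42.8, 42.4 and 41.2 CPM with sg4 and 57.2, 55.1 and 52.1 CPM with sg2, against 48.5 to 54.6 CPM in the controls. For this gene the sg4 libraries were the group apart from the controls. MTUS1 differed by −0.38 ± 0.08 on the log2 scale (adjusted p = 0.0381), from −0.42 to −0.35 without 1 library, and it was not called when effective length was used as an offset. Both genes lie on chromosome 8 with 9 tested genes between them. Those 9 had log2 differences from −0.39 for MTMR7 to 0.08 for SLC7A2 and none was called. MSR1, a macrophage scavenger receptor, was the one of the 9 with an unadjusted p under 0.05, at −0.35 ± 0.16 (SE, edgeR adjusted p = 0.491).

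Receptor tyrosine kinase ligands and feedback genes had a median of −0.07, with 19 of 23 negative. None was called by edgeR or by DESeq2, which gave an adjusted p to 9 of the 23. At an unadjusted p under 0.05, 3 were lower and none higher. EGFR had 396, 397 and 333 CPM with sg4 and 449, 429 and 430 CPM with sg2, without overlap, and differed by −0.22 ± 0.06 (edgeR adjusted p = 0.285). ERRFI1, a feedback inhibitor of EGFR, differed by −0.19 ± 0.06 (adjusted p = 0.343).

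For each called gene the values of the 2 guides against the shared controls are set side by side, from the fit of all 9 libraries. With sg4 against the control 8.43% of 13530 tested genes were called, and with sg2 10.4%. Log2 differences to the control were −0.01 with sg4 and −0.58 with sg2 for FXYD2. They were 0.01 with sg4 and −0.38 with sg2 for SERPINA1, and 0.05 with sg4 and −0.23 with sg2 for SDC1. CEBPD stood at −0.08 with sg4 and −0.50 with sg2, and IFI6 at 0.20 with sg4 and −0.40 with sg2. In these 5 genes the sg2 value was called lower than the control and the sg4 value was not called. C3 and SOD2 were called higher than the control with sg4 (0.39 and 0.23) and not called with sg2 (−0.05 and −0.16), although the adjusted p of SOD2 with sg4 was 0.0488. DPP7 was called lower with both, at −0.33 with sg4 and −0.79 with sg2. DLC1 was not called with sg4 (0.12) and called higher with sg2 (0.46), and MTUS1 was called lower with sg4 (−0.30) and not called with sg2 (0.08).

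Genes that came next by p did not pass the threshold. Higher with sg4 were AMACR, a racemase of branched fatty acid oxidation (0.38 ± 0.09), LRPAP1, a chaperone of LDL receptor family members (0.27 ± 0.06), LFNG, a glycosyltransferase that modifies Notch (0.27 ± 0.06), and HSPA1B, an inducible heat shock protein (0.52 ± 0.12), with edgeR adjusted p-values from 0.162 to 0.193. HSPA1B has a near-identical copy in HSPA1A, so its value is uncertain. Lower with sg4 were KLF7 (−0.30), IL1RAP (−0.36), the ribosomal protein gene RPS27 (−0.27), CCPG1 (−0.27), MBNL2 (−0.25), NIBAN1 (−0.24), RAB11FIP2 (−0.32), PROSER1 (−0.28), PRKCE (−0.25) and CAMSAP2 (−0.24), with adjusted p-values from 0.193 to 0.284. Of these 14 genes, RPS27 was the one whose guides overlapped. LRPAP1, LFNG, PROSER1 and CAMSAP2 were called without library 1 of sg4, and HSPA1B, KLF7, RPS27 and NIBAN1 without library 2 of sg2.

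The difference between the guides went with transcript length in part of the libraries. Genes were split into 10 bins of equal size by effective length. In the shortest bin, up to 998 bases, the median log2 difference was 0.05 and 64.3% of genes were positive. In the longest, from 6290 bases, it was −0.07 and 26.4% were positive. At an unadjusted p under 0.05, 126 genes were higher and 29 lower in the shortest bin, and 21 were higher and 172 lower in the longest. The slope of log2 CPM minus the gene's mean on log2 effective length was 0.023, −0.0225 and −0.0426 in the sg4 libraries and 0.006, 0.0226 and 0.0135 in the sg2 libraries. Libraries 2 and 3 of sg4 had negative slopes, and library 1 of sg4 had the highest of all 6. The mean slope was −0.014 ± 0.0336 with sg4 and 0.014 ± 0.0083 with sg2 (SD, n = 3 each), a difference of −0.0281 with an exact 2-sided permutation p of 0.4, where 20 splits allow no p under 0.1. Libraries 1 and 3 of sg2, with the short assumed fragments, had slopes of 0.006 and 0.0135. In the longest bin their median deviations from the gene's mean were the highest, at 0.0371 and 0.0544. Library 2 of sg2 had 0.0133 there, and the sg4 libraries had 0.0219, −0.0214 and −0.0947. Whether fragment length bears on the trend was not tested.

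**Figure D4:**
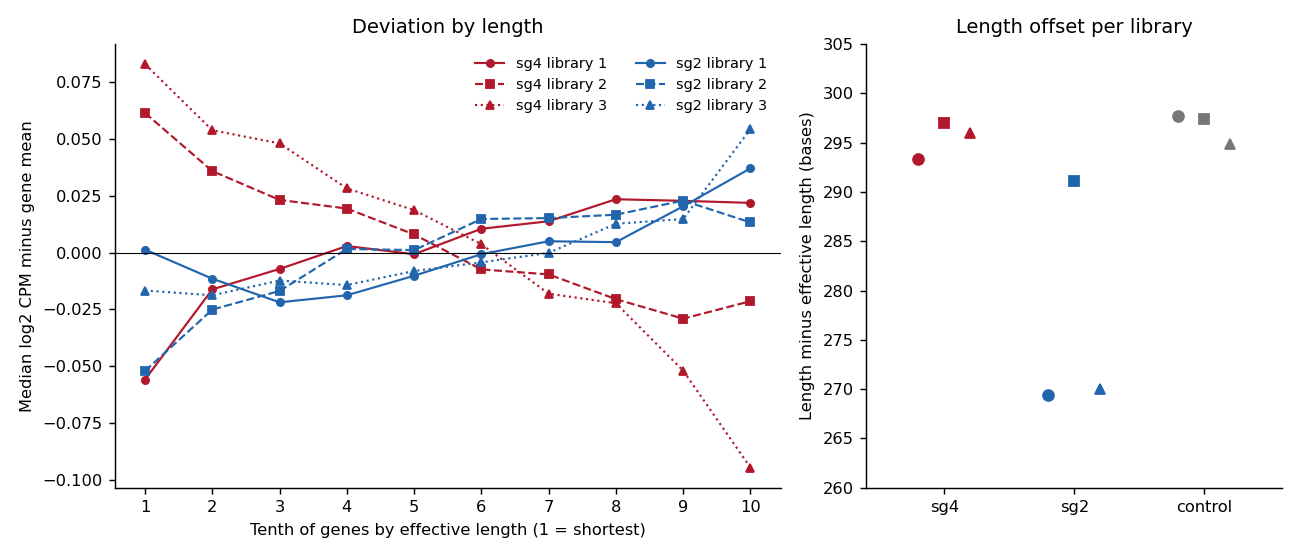
Left, median over genes of log2 CPM minus the gene's mean (y axis) in each of 10 bins of genes by effective length (x axis, 1 is the shortest) for 3 sg4 and 3 sg2 libraries. Right, annotated minus effective length in bases (y axis, which starts at 260) in each of the 9 RNA libraries. Libraries 2 and 3 of sg4 fall with length, library 1 of sg4 rises with the sg2 libraries, and libraries 1 and 3 of sg2 lie at 269 and 270 bases.

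With the length trend removed from each library before the test, 12 genes were called, 10 higher and 2 lower. These held 9 of the 10 called genes, without DLC1, and added AGRN, which encodes the basement membrane proteoglycan agrin, LRPAP1 and RPS27. DLC1 and MTUS1, the called genes lower with sg4, have effective lengths of 6047 and 4637 bases, in bins 9 and 8 of 10. Of the 8 higher genes, FXYD2, IFI6 and CEBPD have 283, 553 and 961 bases and stand in the shortest bin. C3, at 4842 bases, stands in bin 9 with a difference against the trend there, and its log2 difference was 0.47 after removal of the trend.

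The remaining pathways held no gene called by edgeR apart from SOD2 in the NRF2 and antioxidant list, and DESeq2 called PFKL in the glycolysis list and RPS27 among the cytosolic ribosomal proteins. In some lists DESeq2 gave an adjusted p to few members, as to 2 of 75 mitochondrial ribosomal and 1 of 29 fatty acid oxidation genes. The pathways tied to JMJD6 had medians near that of all genes. The 2-oxoglutarate oxygenases, the enzyme family of JMJD6, had a median of −0.02 over 55 genes, with 2 higher and 2 lower at an unadjusted p under 0.05. P3H3, a collagen prolyl hydroxylase, differed by 0.23 ± 0.07 (called without library 1 of sg4, at 0.31) and KDM7A, a histone demethylase, by −0.32 ± 0.12. Splicing factors had a median of 0.02 over 57 genes, with 5 higher and none lower, and SNRNP70, the U1 protein that recognises the 5′ splice site, differed by 0.24 ± 0.07. Partners of JMJD6 in elongation had a median of −0.03 over 31 genes, with 2 higher and 2 lower. AFF4, a scaffold of the super elongation complex, differed by −0.18 ± 0.06 and CDK9, its kinase, by 0.16 ± 0.07.

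Lipid pathways, which the series title raises, showed the following medians. Triglyceride synthesis and lipid droplets had −0.01 over 27 genes with 1 higher and 1 lower at an unadjusted p under 0.05. After removal of the length trend that median was 0.03. AGPAT2, an acyltransferase of that pathway, differed by 0.25 ± 0.07 (edgeR adjusted p = 0.284). It was called without library 1 of sg4, at 0.32. Fatty acid synthesis and uptake had 4e-04 over 24 genes with none at that level in either direction, and SCD, the stearoyl-CoA desaturase, differed by −0.08 ± 0.06. Fatty acid oxidation had 0.04 over 29 genes with 3 higher. Cholesterol synthesis had 0.10 over 27 genes, 26 of them positive, with 5 higher and none lower. IDI1, an isomerase of the pathway, had 73.8, 68.7 and 64.0 CPM with sg4 and 58.0, 67.6 and 47.9 CPM with sg2, with overlap, and differed by 0.25 ± 0.09 (adjusted p = 0.397). When library 2 was the only sg2 library the cholesterol median was −0.02.

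Hypoxia-inducible factor targets, which are active in this tumour type through loss of VHL, had a median of −0.01 over 29 genes with 1 higher and 3 lower at an unadjusted p under 0.05. Glycolysis had 0.06 over 26 genes with 2 higher and 1 lower, and PFKL, a phosphofructokinase, had 169, 173 and 170 CPM with sg4 and 144, 138 and 155 CPM with sg2 (0.23 ± 0.06, edgeR adjusted p = 0.284). Immediate early genes had 0.04 over 19 genes with 6 higher and 1 lower. EGR1, a zinc-finger factor, differed by 0.24 ± 0.07 (adjusted p = 0.284) without overlap, and FOSB, a partner of JUN, by 0.38 ± 0.11 with overlap. TGF-beta and activin signalling had −0.01 over 24 genes with 1 higher and 2 lower, with INHBA, a subunit of activin A, at −0.21 ± 0.08 and INHBB, a subunit of activin B, at 0.33 ± 0.14, neither of them called. Without 1 library INHBA ranged from −0.30 to −0.10 and INHBB from 0.18 to 0.44. Extracellular matrix and mesenchymal genes had −0.02 over 31 genes with 2 higher and 7 lower. Their median effective length was 5380 bases, and the median was 0.01 after removal of the length trend. Their values ran from −0.33 to 0.21. The 2 higher ones were COL6A2 and COL6A1, chains of collagen VI, at 0.21 and 0.20. The TGF-beta and activin median was 0.04 after that removal. YAP and SRF targets had −0.02 over 28 genes with none higher and 5 lower.

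Housekeeping, growth and stress pathways had medians from −0.04 to 0.06, and some turned negative once the length trend was removed. The respiratory chain, with a median effective length of 553 bases, had 0.04 over 75 genes with 11 higher and none lower at an unadjusted p under 0.05, and −0.01 after removal of the length trend. Mitochondrial ribosomal proteins had 0.03 over 75 genes with 10 higher and 1 lower, and −0.01 after that removal. Cytosolic ribosomal proteins had 0.01 over 78 genes with 4 higher and 2 lower, and −0.03 after it. The proteasome had 0.06 over 34 genes with 7 higher and none lower, mitosis −0.01 over 38 genes with 1 higher and 2 lower, and DNA replication 0.06 over 45 genes with 1 higher and 1 lower. The p53 targets had 0.03 over 30 genes with 1 higher, the unfolded protein response 0.02 over 23 genes with none in either direction, and the ATF4 and amino acid response −0.04 over 29 genes with 3 lower. The NRF2 and antioxidant list had 0.03 over 33 genes with 3 higher, SOD2 among them, and 2 lower. Small nucleolar RNA hosts had −0.01 over 22 genes with 3 lower. Apart from SOD2, the members of lowest p in these lists were not called by edgeR. They include NDUFA2, a subunit of complex I (0.39 ± 0.11, edgeR adjusted p = 0.284), PSMD13, of the proteasome lid (0.22 ± 0.08), and BBC3, the p53 target PUMA (0.36 ± 0.13). TPX2, a spindle assembly factor, stood at −0.14 ± 0.06 and GARS1, a glycyl-tRNA synthetase, at −0.15 ± 0.05.

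**Figure D5:**
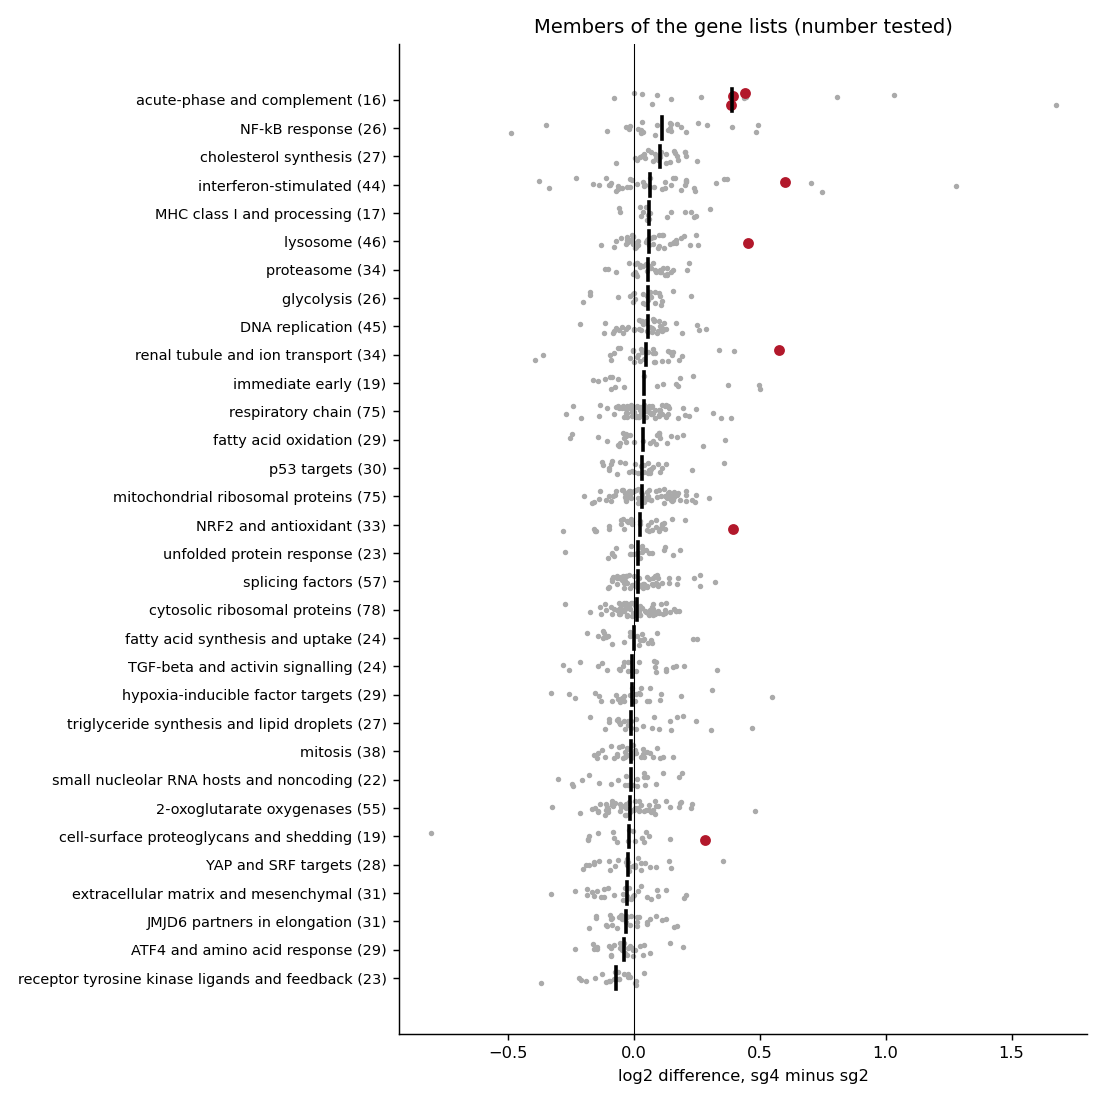
Log2 difference, sg4 minus sg2 (x axis), of each tested member of the gene lists (rows, number tested in brackets), cell type markers not drawn. Grey points are members that were not called, red points called members, and black bars the median. Of the lists drawn, acute-phase and complement has the highest median, 0.39, the NF-kB response the next, 0.11, and receptor tyrosine kinase ligands and feedback the lowest, −0.07. Lists and their members were chosen with earlier results of these data known, so their order is a description and not a test.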

How the data were processed

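RNA-seq of 9 libraries was used. Per the file headers, each RefSeq transcript has a length, an effective length, an estimated count and a TPM from Salmon. The deposited TPM had been scaled by effective length by the authors and was used only for mean levels in tables. All deposited estimated counts were whole numbers. Without roles, the submitters' processing notes name bcl2fastq 2.20.0, STAR 2.5.2b, cutadapt 1.12, DESeq2, Salmon and the builds hg19 and GRCh37. The strand setting and annotation are not given in the sources used here. Counts were rounded and summed per gene: 58031 of 60422 transcripts matched 26809 genes of the GRCh38.p14 table (names and neighbours only), and unmatched ones held 1.33% to 1.65% of counts. The 6 knockout libraries were fitted with edgeR 4.0.16 (R 4.3.3, limma 3.58.1; filterByExpr, TMM, quasi-likelihood test, 2-sided). Calls were made where the p adjusted over 13314 genes by Benjamini-Hochberg was under 0.05. The script was tested on simulated data. Differences to the control come from 1 fit of 9 libraries. The length trend was a lowess (span 0.3) of log2 CPM (prior count 2) on log2 effective length per library. DESeq2 1.42.0, other scaling, filters, offsets, a replicate block and left-out libraries were alternatives. Equal replicate numbers do not mark shared batches in the labels. Named genes were JMJD6, DGAT1, 3 neighbours a side, called genes, the next by p up to 12 a direction (mean log2 CPM of at least 1), and called members, or else the 2 of lowest p, of each list; further list members were named after their values were seen. Members and lists were chosen with earlier results of these data known, and lists carry no test. Peak lists were not used here. Some items named by this rule are not reported here.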

Additional observations from a re-analysis of the deposited data

How the results depend on the processing

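The count of 8 genes higher and 2 lower stayed within 1.5 times of itself with relative log expression factors, a filter of at least 1 CPM, all 9 libraries in the fit, and both length offsets. DESeq2 called 14 higher and 4 lower, gave an adjusted p to 1600 genes and to 2 of the 10, and called SDC1 of those 2 but not SOD2. With no filter 41 were higher and 11 lower. With 1 library left out, from 0 to 72 were higher and from 0 to 12 lower. With libraries 2 and 3 of sg4 left out, 0 were higher and 0 lower, and likewise (added after seeing the data) with libraries 1 and 3 of sg2 left out. The length offset with 9 libraries, also added, called 13. Over all tested genes, deviations of same-numbered libraries correlated at −0.03, −0.05 and 0.07. A correlation over all genes does not tell whether some genes vary together in same-numbered libraries. Library 3 was the highest of its group with both guides for SOD2, SERPINA1 and CXCL8. With the replicate block 4 were higher and 0 lower, and with block and length offset 3 higher and 0 lower. DGAT1 turned to −0.0237 with libraries 2 and 3 of sg4 left out, where POLA1 was 0.0046, SLC27A1 −0.2019, ACTA2 −0.1589, MXRA7 −0.0525 and METTL23 −0.033. With the length offset MXRA7 was −0.0233 and METTL23 −0.0056, with block and length offset −0.0235 and −0.0056, and with that offset and 9 libraries −0.0222 and −0.0052. With libraries 1 and 3 of sg2 left out MXRA7 was −0.0142, SRSF2 −0.0285 and ZFAS1 0.1447. With 1 library left out MXRA7 ranged from −0.0175 (without library 3 of sg4) to 0.0356, and was −0.0045 without library 3 of sg2, while ACTA2 ranged from −0.0098 (without library 2 of sg2) to 0.3147. None of these turned genes was called in any alternative except ZFAS1, at −0.4064 without library 2 of sg2 (edgeR adjusted p = 0.0482), and the cause was not tested. Depth limits the low genes most: SERPINA3, MX2 and SAA2 rest on a few CPM.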
